A study of Homo sapiens with 6 samples.

Results

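The DNA replication and G1/S genes are a module of 49 genes whose products license origins, unwind and copy DNA, supply nucleotides and drive entry into S phase. They were chosen by name, and each was taken from the count table by its gene symbol. All 49 were found among the 56303 genes of the table, and all 49 were among the 21298 that passed the filter on low counts. The cells were labelled T24, an established human bladder cancer line, and were grown in RPMI 1640 with fetal bovine serum. They were transfected with a control siRNA (siNC) or with siRNA against FBXL6, which encodes an F-box protein of SCF ubiquitin ligases (siFBXL6), and RNA was taken 48 h later. The numbers siFBXL6 1 to 3 were taken as replicate numbers, but the study also names its siRNAs against FBXL6 by number, so whether all 3 samples had the same siRNA is not known. There were 3 samples in each of the 2 groups, and mRNA was sequenced from libraries made with a stranded kit. Total counts were 58646515, 60967902 and 56814946 in siNC 1 to 3 and 60968158, 60898556 and 60754015 in siFBXL6 1 to 3. Nothing in the labels says that the 3 samples came from separate cultures, so the p-values measure the spread between these samples, which may be technical.

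A cell copies its genome once per division. In G1 the origin recognition complex, CDC6 and CDT1 load the ring of MCM subunits onto origins, and at the start of S phase CDC45 and the GINS complex turn that ring into a running helicase that feeds the DNA polymerases. Many of these genes are transcribed by E2F factors once cyclin-dependent kinases have inactivated the retinoblastoma protein, and their RNA is a common measure of proliferation in tumors, bladder carcinoma included.

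The targeted gene was examined first. FBXL6 was at 6.19, 6.70 and 6.93 CPM (counts scaled by TMM-normalized library size) in siNC 1 to 3 and at 6.58, 5.70 and 5.81 CPM in siFBXL6 1 to 3. The groups overlapped, siFBXL6 1 lying among the siNC libraries. The log2 fold change was -0.13 (95% interval -0.31 to 0.05, edgeR adjusted p = 0.247), and an exact two-sided permutation test gave p = 0.2, where the smallest p that 3 against 3 libraries allow is 0.1. FBXL6 mRNA therefore did not set the groups apart, and "the libraries labelled siFBXL6" is used for that group. ACTB, a cytoskeletal gene used as a loading reference, was at 1157, 1151 and 1196 CPM in siNC and at 1197, 1148 and 1160.2 CPM in the libraries labelled siFBXL6. Its groups overlapped at a log2 fold change of 0.00 (edgeR adjusted p = 0.996), and it was not called under any alternative, its sign turning negative under upper-quartile scaling, library size alone, no filter on low counts, and without siNC 1, siNC 2 or siFBXL6 1.

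Marker genes of broad cell types were examined next. They were not chosen to tell bladder cancer lines apart, so whether the cells were T24 was not tested. The 13 urothelial and epithelial markers summed to 4005, 3878 and 3987 CPM in siNC 1 to 3 and to 3558, 3545 and 3559.9 CPM in siFBXL6 1 to 3, with KRT7, a keratin of simple and transitional epithelium, as the most abundant. Their summed level was lower in every library labelled siFBXL6. Of the 10 markers that were tested 8 were called, where 40.2% of all genes tested were. Among genes averaging 10 CPM or more, 28.8% were called lower and 30.8% higher. KRT5, KRT7, KRT8, KRT19, EPCAM and GATA3 fell, with KRT5 at log2 fold change -0.48, edgeR adjusted p = 7.84e-16, while CDH1 (log2 fold change 0.16, edgeR adjusted p = 5.99e-05) and TP63 (log2 fold change 0.18, edgeR adjusted p = 1.98e-05) rose. The part of this difference in the replication genes was not tested. KRT20, UPK1B and UPK3A, markers of differentiated urothelium, had at most 6 counts in any library, and UPK2 had 68 to 94. The fibroblast list summed to 39.9, 41.1 and 39.2 CPM in siNC and 37.0, 36.4 and 35.1 CPM in the libraries labelled siFBXL6, most of it COL1A1, which fell (log2 fold change -0.15, edgeR adjusted p = 0.00427), while DCN and LUM stayed at or below 20 counts. Leukocyte markers summed to at most 1.88 CPM in any library, CD14 being the most abundant in each except siNC 1, where PTPRC was. PTPRC, CD14 and LYZ, the leukocyte markers tested, were not called, and CD3E was at or below 4 counts. The 4 endothelial markers summed to 1.92, 1.62 and 1.76 CPM in siNC and 2.45, 2.15 and 3.24 CPM in the libraries labelled siFBXL6, with VWF the most abundant in siNC and PECAM1 in each library labelled siFBXL6. PECAM1 was the 1 called, at 0.427, 0.648 and 0.644 CPM against 1.31, 1.08 and 1.79 CPM (log2 fold change 1.28, edgeR adjusted p = 4.4e-05). Of the erythroid pair, HBA1 had 0 counts in all 6 libraries and HBB had at most 6.

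Most of the module was slightly lower in the libraries labelled siFBXL6. A gene was called when its adjusted p was under 0.05 in edgeR's quasi-likelihood test. By that rule 30 of the 49 members were called, 61.2%, where 40.2% of all 21298 genes tested were. Lower levels were found for 25 members, 51.0%, against 19.8% of all genes tested, and higher levels for 5, 10.2%, against 20.5%. The 5 that rose were GINS1, GINS4, CDC6, RRM2 and RFC1. The other 19 members were not called. The median log2 fold change was -0.12 over the members and -0.01 over all genes tested, with members running from -0.34 (MCM3) to 0.44 (GINS1). These are small changes. No member changed 2-fold, and 43 of 49 lay within a log2 fold change of 0.25 of no change, as did 13248 of all 21298 genes tested. Of the members 5 were called and changed at least 1.2-fold, against 4661 of all 21298 genes tested. Of these 5, MCM3 and CLSPN fell, while CDC6, GINS4 and GINS1 rose, so the lean downward was not seen at that cut. In RNA from a whole culture, fewer cells that express a gene and less of its RNA per cell cannot be told apart.

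The members are mostly abundant genes, and abundant genes were called more often. Among the 9887 genes averaging 10 CPM or more, a background chosen after seeing the data, 28.8% were called lower and 30.8% higher. The 46 members above that level included all 25 that were called lower (54.3%) and all 5 called higher (10.9%). These genes are not matched to the members in level, with a median of 37.9 CPM against 72.0 CPM for the 46 members. Counting libraries in place of calls, 26 members were lower in every library labelled siFBXL6 than in any siNC library, where 23.9% of all genes tested were, and 6 were higher in every one, where 24.3% of all genes were. Taken library by library, the median over the members of log2(CPM / siNC mean) was 0.03, -0.01 and 0.00 in siNC 1 to 3. It was -0.10, -0.11 and -0.13 in siFBXL6 1 to 3. All 3 libraries labelled siFBXL6 lay below all 3 siNC libraries, at similar distances.

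**Figure D1:**
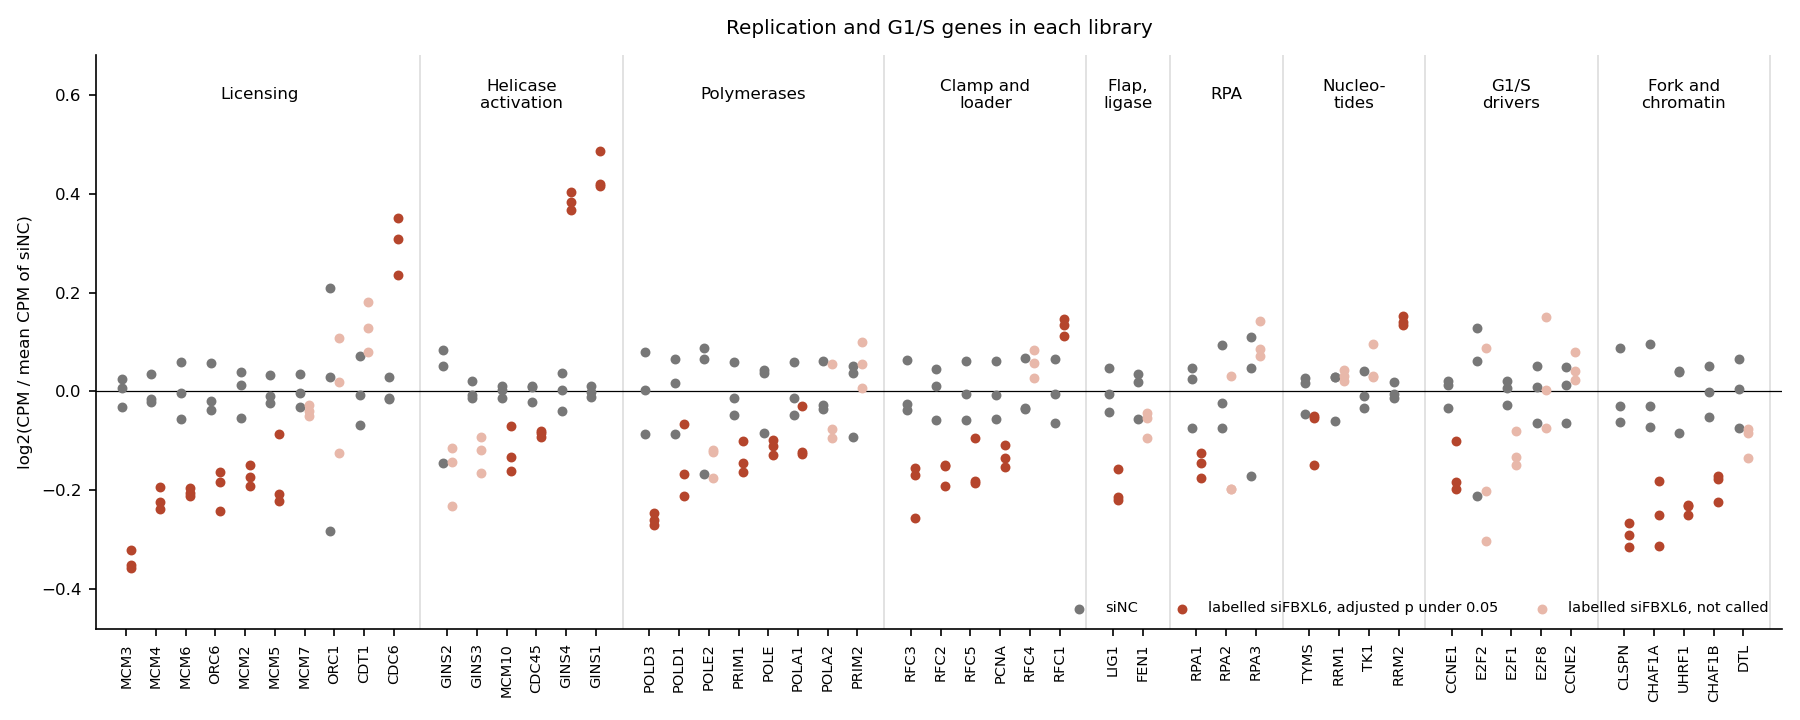
Each of the 49 members, grouped by role, in each of the 6 libraries, as log2(CPM / mean CPM of siNC) on the vertical axis; grey points are siNC, dark red points the libraries labelled siFBXL6 for called members and pale red points for members not called. Most dark points lie below 0, down to MCM3, while GINS1, GINS4 and CDC6 lie above all others.

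Origin licensing held the largest fall of the module beside a rise. Of its 10 members 6 fell, 1 rose and 3 were not called, against 19.8% lower and 20.5% higher among all genes tested. MCM3, a subunit of the replicative helicase ring, was at 301, 289 and 297 CPM in siNC 1 to 3 and at 237, 231 and 232 CPM in siFBXL6 1 to 3. The groups lay far apart relative to their spread, and this was the largest fall in the module (log2 fold change -0.34, SE 0.03, edgeR adjusted p = 1.21e-11). MCM4, another ring subunit, had 236, 228 and 227 CPM in siNC and 195, 197 and 201 CPM in the libraries labelled siFBXL6. Every library labelled siFBXL6 was below every siNC library (log2 fold change -0.22, edgeR adjusted p = 2.93e-07). For MCM2 the values were 151, 149 and 142 CPM against 133, 129 and 131 CPM. It too showed no overlap (log2 fold change -0.17, edgeR adjusted p = 3.67e-05). MCM6 (log2 fold change -0.20, edgeR adjusted p = 4.11e-06) and MCM5 (log2 fold change -0.17, edgeR adjusted p = 0.000616) fell as well. MCM7, the remaining subunit of the ring, was not called at a log2 fold change of -0.04 (edgeR adjusted p = 0.323, 95% interval -0.10 to 0.02), and its groups overlapped.

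The genes that load the ring did not share a direction. CDC6, the ATPase that recruits the ring to the origin complex, was at 156, 156 and 161 CPM in siNC and at 186, 201 and 195 CPM in the libraries labelled siFBXL6. All 3 of the latter were higher, siFBXL6 1 the least so (log2 fold change 0.30, SE 0.03, edgeR adjusted p = 2.11e-09). CDT1, its partner in loading, was not called (log2 fold change 0.13, edgeR adjusted p = 0.101), although it was higher in every library labelled siFBXL6. A GC content correction, added after seeing the data, made it a call (edgeR adjusted p = 0.0217, range over the alternatives 0.0217 to 0.289). ORC6, a small subunit of the origin recognition complex, fell (log2 fold change -0.20, edgeR adjusted p = 1.48e-05), and ORC1, its largest subunit, was not called (log2 fold change 0.00, edgeR adjusted p = 0.984).

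Helicase activation was divided within 1 complex. GINS1, a subunit of the GINS tetramer that joins CDC45 and the MCM ring, was at 45.6, 45.9 and 46.3 CPM in siNC and at 61.5, 61.3 and 64.3 CPM in the libraries labelled siFBXL6. The gap between the groups was many times their spread, and it was the largest rise in the module (log2 fold change 0.44, SE 0.04, edgeR adjusted p = 3.07e-12). GINS4, from the same tetramer, went from 12.7, 13.4 and 13.1 CPM to 17.2, 17.0 and 16.8 CPM. Its groups did not overlap either (log2 fold change 0.38, edgeR adjusted p = 1.27e-06). Exons of an antisense gene, RP11-360L9.7, cover 21.2% of the exon bases of GINS4, and whether the counting used the strand is not given in the sources used here. That gene rose as well, from 1.27, 1.62 and 1.88 CPM to 2.35, 2.58 and 2.07 CPM (log2 fold change 0.56, edgeR adjusted p = 0.00533). What reads in the shared bases did to the GINS4 counts was not tested. The other subunits, GINS2 (log2 fold change -0.16, edgeR adjusted p = 0.0691) and GINS3 (log2 fold change -0.13, edgeR adjusted p = 0.115), were not called, and both had negative values. GINS2 was called under 3 other settings and without siNC 1 (edgeR adjusted p = 0.0104, range over the alternatives 0.0104 to 0.247).

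MCM10, which is needed to start the assembled helicase, was at 62.1, 63.2 and 62.8 CPM in siNC and at 56.1, 57.2 and 59.8 CPM in the libraries labelled siFBXL6. The groups did not overlap (log2 fold change -0.12, edgeR adjusted p = 0.00541), and the call was lost without siFBXL6 1 (edgeR adjusted p = 0.0521, range over the alternatives 0.00124 to 0.0521). CDC45 had a smaller fall (log2 fold change -0.09, edgeR adjusted p = 0.0242). That call was lost without siNC 3 (edgeR adjusted p = 0.0538) and without siFBXL6 1, 2 or 3 (edgeR adjusted p = 0.0859, 0.0657 and 0.0795), and with no filter on low counts, in a range over the alternatives of 0.00402 to 0.0859.

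Ratios of counts within a library do not depend on how libraries are scaled. They are given as a description, since the pairs were chosen after their values were seen. The log2 ratio of GINS1 to GINS2 counts was 2.16, 1.97 and 1.95 in siNC 1 to 3 and 2.56, 2.67 and 2.65 in siFBXL6 1 to 3. Relative to GINS3, GINS4 moved from log2 ratios of 0.04, 0.09 and 0.09 to 0.60, 0.55 and 0.61. Neither ratio overlapped between the groups. For MCM3 over MCM7 the log2 ratios were 0.45, 0.46 and 0.47 against 0.17, 0.15 and 0.15. The ring's transcripts also shifted against each other, toward MCM7. Exons on the opposite strand cover 10.9% of the exon bases of GINS3 and 8.94% of those of MCM7. With the strand setting unknown, reads in the shared bases may have been added to or lost from these ratios. Between the loaders, CDC6 over CDT1 was at 3.74, 3.68 and 3.65 and 3.75, 3.91 and 3.92, the lowest library labelled siFBXL6 lying just above the highest siNC library. POLD3 over POLD1, subunits of a DNA polymerase, was at 0.51, 0.19 and 0.33 and 0.27, 0.15 and 0.29, and there the groups overlapped.

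**Figure D2:**
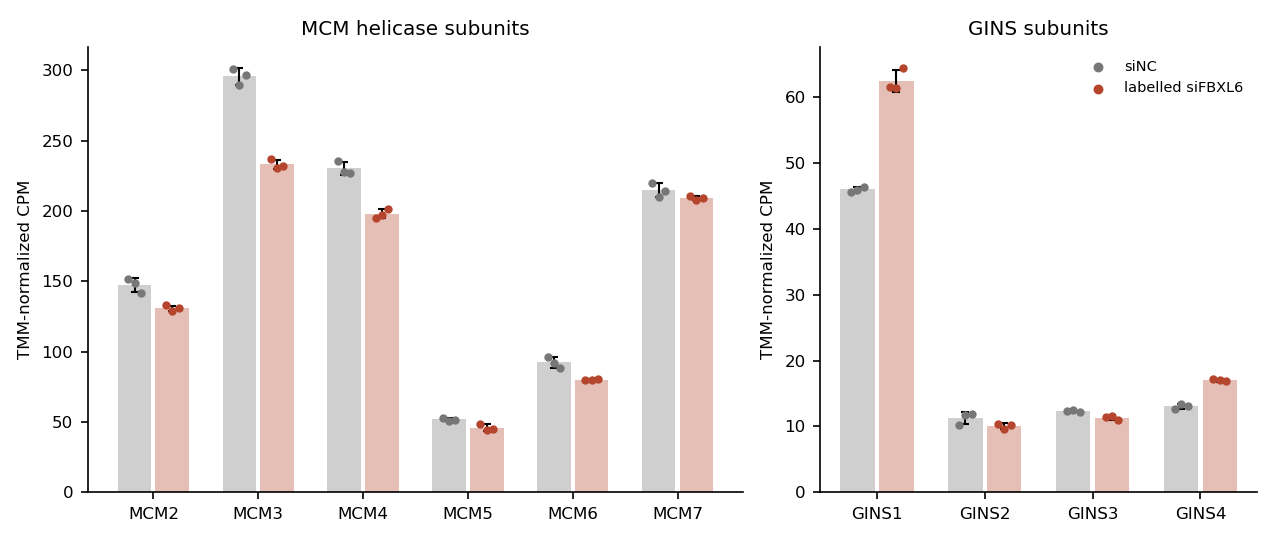
TMM-normalized CPM (vertical axis, from 0) of the 6 MCM ring subunits and the 4 GINS subunits; bars are means of 3 libraries, error bars the SD and points single libraries, grey for siNC and red for those labelled siFBXL6. MCM2 to MCM6 were lower in every library labelled siFBXL6, MCM7 overlapped, and GINS1 and GINS4 rose while GINS2 and GINS3 did not.

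Members at both ends of the range carry E2F letters near their start. RefSeq promoter windows (GRCh38.p14, 250 bases before the start and 50 from it on) were available for 41 of the 49 members, the others being MCM4, MCM5, GINS4, POLD3, RPA2, RPA3, CCNE2 and E2F8. The letters TTTCCCGC or TTTGGCGC, on either strand, were in 20 of the 41 windows (48.8%) and in 2.31% of all 27305 windows of that length. Windows are shown for MCM3 and CLSPN, which had the largest falls, and for GINS1 and CDC6, which rose most among members with a window, with the E2F letters or their reverse complement in capitals. They lie at chr6:52284693-52284992, minus strand (MCM3), chr1:35769929-35770228, minus strand (CLSPN), chr20:25407423-25407722, plus strand (GINS1) and chr17:40287629-40287928, plus strand (CDC6), and each is written 5′ to 3′ along its gene.
MCM3: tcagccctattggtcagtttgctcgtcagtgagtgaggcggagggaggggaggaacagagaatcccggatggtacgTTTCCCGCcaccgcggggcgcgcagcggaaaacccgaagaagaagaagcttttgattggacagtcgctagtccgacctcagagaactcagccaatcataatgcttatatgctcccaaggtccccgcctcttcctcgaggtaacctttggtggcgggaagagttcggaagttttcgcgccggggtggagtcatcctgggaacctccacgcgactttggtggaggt
CLSPN: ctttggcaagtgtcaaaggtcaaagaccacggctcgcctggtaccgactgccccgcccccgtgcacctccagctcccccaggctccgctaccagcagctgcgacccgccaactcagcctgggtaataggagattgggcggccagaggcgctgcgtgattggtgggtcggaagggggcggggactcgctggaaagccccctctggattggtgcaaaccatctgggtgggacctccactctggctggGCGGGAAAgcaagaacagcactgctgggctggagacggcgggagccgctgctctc
GINS1: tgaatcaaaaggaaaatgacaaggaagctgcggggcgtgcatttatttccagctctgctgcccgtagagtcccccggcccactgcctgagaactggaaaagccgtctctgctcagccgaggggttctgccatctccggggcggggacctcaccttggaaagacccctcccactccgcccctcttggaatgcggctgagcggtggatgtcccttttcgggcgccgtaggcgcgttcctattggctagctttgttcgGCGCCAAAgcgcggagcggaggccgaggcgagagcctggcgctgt
CDC6: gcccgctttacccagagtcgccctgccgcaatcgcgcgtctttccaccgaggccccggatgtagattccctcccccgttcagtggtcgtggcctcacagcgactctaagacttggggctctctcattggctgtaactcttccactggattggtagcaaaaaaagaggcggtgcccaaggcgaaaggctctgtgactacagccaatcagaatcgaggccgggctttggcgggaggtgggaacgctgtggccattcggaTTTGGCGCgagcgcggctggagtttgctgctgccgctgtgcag

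The capitals begin at -174 from the start in MCM3, at -5 in CLSPN, at 5 in GINS1 and at 7 in CDC6, counting the start as 0. Of the 20 members with the letters, 10 fell, 2 rose and 8 were not called, with a median log2 fold change of -0.13. Of the 21 without them, 12 fell, 2 rose and 7 were not called, with a median of -0.12. Among all genes tested 19.8% fell and 20.5% rose. Members that fell and members that rose were found both with and without the letters. CCAAT was in 58.5% of the members' windows and 35.7% of all windows. TTTGAA was in 2.44% of the members' windows and 15.4% of all windows. Each motif was searched on both strands and counted whether or not it overlapped another, and a match describes the letters of a window only.

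Among the polymerase genes 5 of 8 fell and 3 were not called, where 19.8% of all genes tested and 28.8% of those averaging 10 CPM or more fell. POLD3, an accessory subunit of polymerase delta, the lagging-strand enzyme, was at 95.4, 85.0 and 90.6 CPM in siNC and at 76.1, 75.5 and 74.9 CPM in the libraries labelled siFBXL6. Its groups were clearly separate, the siNC libraries varying more (log2 fold change -0.26, edgeR adjusted p = 2.4e-07). POLD1, the catalytic subunit of the same enzyme, was at 66.9, 74.3 and 71.8 CPM against 63.2, 67.8 and 61.3 CPM. Here siFBXL6 2 lay above siNC 1, so the groups overlapped, and the gene was still called (log2 fold change -0.15, edgeR adjusted p = 0.0025). POLE, the catalytic subunit of the leading-strand polymerase, was at 96.4, 96.9 and 88.7 CPM against 87.7, 87.0 and 86.0 CPM. The groups did not overlap but siNC 3 came close to the other group (log2 fold change -0.11, edgeR adjusted p = 0.00696), and the call was lost without siNC 2 (edgeR adjusted p = 0.062, range over the alternatives 0.000316 to 0.062).

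Of the subunits of the primase-polymerase complex, POLA1 and PRIM1 were called, both close to the threshold. POLA1, the catalytic subunit of polymerase alpha, fell (log2 fold change -0.09, edgeR adjusted p = 0.0276) with overlapping groups, and it was not called without siNC 1, siFBXL6 1 or siFBXL6 3 (edgeR adjusted p = 0.115, 0.14 and 0.163) or with DESeq2 (DESeq2 adjusted p = 0.0543), in a range of 0.00471 to 0.163. PRIM1, the catalytic primase subunit, was called at log2 fold change -0.14, edgeR adjusted p = 0.0408. It lost the call without siNC 1, siNC 3, siFBXL6 2 or siFBXL6 3 (edgeR adjusted p = 0.163, 0.0592, 0.106 and 0.131), and also with DESeq2 or with no filter on low counts, in a range of 0.0174 to 0.163. PRIM2 (log2 fold change 0.05, edgeR adjusted p = 0.535) and POLA2 (log2 fold change -0.04, edgeR adjusted p = 0.63), the remaining subunits of that complex, were not called. POLE2, an accessory subunit of polymerase epsilon, was not called either (log2 fold change -0.14, edgeR adjusted p = 0.151), except without siNC 3 (edgeR adjusted p = 0.0296, range over the alternatives 0.0296 to 0.405).

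Of the sliding clamp and the subunits of its loader, 4 of 6 fell, 1 rose and 1 was not called, where 19.8% of all genes tested fell and 20.5% rose. All 6 averaged more than 10 CPM, and among genes at that level 28.8% fell and 30.8% rose. PCNA, the clamp that tethers polymerases to DNA and a standard proliferation marker, was at 103, 99.7 and 108 CPM in siNC and at 96.2, 93.3 and 94.4 CPM in the libraries labelled siFBXL6. The groups did not overlap (log2 fold change -0.13, edgeR adjusted p = 0.00144). RFC2, a small subunit of the clamp loader, was at 105, 110.0 and 113 CPM against 98.4, 98.5 and 95.7 CPM. RFC3, another small subunit, was at 26.6, 28.2 and 26.3 CPM against 24.3, 24.04 and 22.6 CPM. Both fell with no overlap, RFC2 at log2 fold change -0.16, edgeR adjusted p = 9.31e-05, and RFC3 at log2 fold change -0.19, edgeR adjusted p = 0.0014. RFC5 fell too (log2 fold change -0.15, edgeR adjusted p = 0.00747), and RFC4 was not called (log2 fold change 0.06, edgeR adjusted p = 0.308). RFC1, the large subunit of the loader, was at 181, 172 and 165 CPM in siNC and at 189, 191 and 187 CPM in the libraries labelled siFBXL6. It was the subunit that rose, again without overlap (log2 fold change 0.13, edgeR adjusted p = 0.00125), so that the log2 ratio of RFC1 to RFC2 counts went from 0.78, 0.64 and 0.55 to 0.95, 0.96 and 0.96.

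Maturation of the lagging strand was represented by a nuclease and a ligase. LIG1, the ligase that seals Okazaki fragments, was at 105, 101 and 98.3 CPM in siNC and at 87.2, 90.8 and 86.9 CPM in the libraries labelled siFBXL6. All of the latter were lower (log2 fold change -0.20, edgeR adjusted p = 6.84e-06). FEN1, which trims the flaps before ligation, was at 112, 105 and 110.5 CPM against 105, 102 and 106 CPM. Its groups overlapped and it was not called (log2 fold change -0.06, edgeR adjusted p = 0.119), although it passed without siNC 2 (edgeR adjusted p = 0.0423), with upper-quartile scaling and with library size alone, in a range of 0.0264 to 0.372.

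Of the subunits of RPA, the complex that coats single-stranded DNA, 1 of 3 was called, the largest subunit, where 40.2% of all genes tested were. RPA1 was at 70.8, 65.1 and 69.8 CPM in siNC and at 60.7, 61.9 and 62.9 CPM in the libraries labelled siFBXL6. These groups did not overlap (log2 fold change -0.15, edgeR adjusted p = 0.000996). RPA2 was at 31.2, 27.7 and 28.7 CPM against 29.8, 25.4 and 25.5 CPM. In RPA2, siFBXL6 1 lay among the siNC libraries, and the gene was called when that library was left out (edgeR adjusted p = 0.00555) or under 4 other settings, against 0.0855 with all libraries in edgeR (log2 fold change -0.12, range over the alternatives 0.00555 to 0.367). RPA3 was at 25.4, 30.8 and 29.5 CPM against 30.3, 31.5 and 30.0 CPM. Its siNC 1 was lower than the rest and the groups overlapped (log2 fold change 0.10, edgeR adjusted p = 0.133), with a call without siNC 2 (edgeR adjusted p = 0.0289, range over the alternatives 0.0289 to 0.774).

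Of the 4 nucleotide genes 1 fell, 1 rose and 2 were not called, a count near the shares of all genes tested (19.8% lower and 20.5% higher). RRM2, the regulated subunit of ribonucleotide reductase, which makes deoxynucleotides, was at 158, 158 and 161 CPM in siNC and at 175, 175 and 177 CPM in the libraries labelled siFBXL6. It rose with little spread in either group (log2 fold change 0.14, edgeR adjusted p = 0.0002). RRM1, the large subunit of the same enzyme and the most abundant member, was not called (log2 fold change 0.03, edgeR adjusted p = 0.423). TK1, which salvages thymidine, was at 54.3, 55.2 and 57.1 CPM against 56.6, 59.4 and 56.7 CPM. Its groups overlapped (log2 fold change 0.05, edgeR adjusted p = 0.266). TYMS, thymidylate synthase, was at 98.6, 94.5 and 99.4 CPM against 93.9, 87.9 and 94.2 CPM. It was the weakest call of the module (log2 fold change -0.08, edgeR adjusted p = 0.0458). Leaving out any library but siNC 2 ended that call, with edgeR adjusted p between 0.0547 and 0.334, and 4 other settings ended it too (range over the alternatives 0.00977 to 0.334). Of the exon bases of TYMS 18.8% are shared with ENOSF1 on the opposite strand, which was itself not called (log2 fold change -0.08, edgeR adjusted p = 0.0723).

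Of the 5 drivers of the G1/S transition, 1 fell and 4 were not called, near the share of all genes tested that fell (19.8%). CCNE1, a cyclin that activates CDK2, was at 59.1, 56.9 and 58.8 CPM in siNC and at 54.3, 51.3 and 50.8 CPM in the libraries labelled siFBXL6. The groups did not overlap, and CCNE1 was the driver called (log2 fold change -0.16, edgeR adjusted p = 0.000579). CCNE2, the other E cyclin, was at 62.7, 58.0 and 61.1 CPM against 61.6, 64.0 and 62.4 CPM. Its groups overlapped (log2 fold change 0.05, edgeR adjusted p = 0.3). Exons of other genes, nearly all of them INTS8 on the opposite strand, cover 37.1% of the exon bases of CCNE2, and INTS8 was not called either (log2 fold change 0.01, edgeR adjusted p = 0.903). E2F1, an activating factor for many of the other members, was at 16.8, 16.4 and 17.0 CPM against 15.8, 15.3 and 15.1 CPM. All 3 libraries labelled siFBXL6 were lower, but the gene missed the threshold (log2 fold change -0.12, edgeR adjusted p = 0.0867, 95% interval -0.23 to -0.01), passing it with upper-quartile scaling (edgeR adjusted p = 0.0444) and with library size alone (edgeR adjusted p = 0.0423), in a range of 0.0423 to 0.24. E2F2, also an activator, averaged 3.40 CPM and was not called (log2 fold change -0.13, edgeR adjusted p = 0.44). E2F8, an atypical E2F that represses, was not called (log2 fold change 0.03, edgeR adjusted p = 0.728).

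Of the 5 genes of fork protection and chromatin assembly 4 fell and 1 was not called, against 19.8% lower among all genes tested and 28.8% among those averaging 10 CPM or more. CLSPN, the fork adaptor that passes signals to the checkpoint kinase CHEK1, was at 208, 192 and 188 CPM in siNC and at 160.4, 163 and 158 CPM in the libraries labelled siFBXL6. The groups were well apart (log2 fold change -0.29, edgeR adjusted p = 1.2e-08). UHRF1, which maintains DNA methylation behind the fork, was at 186, 186 and 170.4 CPM against 154, 154 and 152 CPM. CHAF1A, the large subunit of the chromatin assembly factor, was at 301, 275 and 268 CPM against 226, 248 and 236 CPM. Neither overlapped, with UHRF1 at log2 fold change -0.24, edgeR adjusted p = 3.58e-07, and CHAF1A at log2 fold change -0.25, edgeR adjusted p = 8.71e-07. CHAF1B, the partner of CHAF1A, fell as well (log2 fold change -0.19, edgeR adjusted p = 1.97e-05). DTL, the substrate receptor that removes CDT1 in S phase, was lower in every library labelled siFBXL6 but not called (log2 fold change -0.10, edgeR adjusted p = 0.102). It was called without siNC 3 (edgeR adjusted p = 0.0386), with upper-quartile scaling and with library size alone, in a range of 0.0386 to 0.343.

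**Figure D3:**
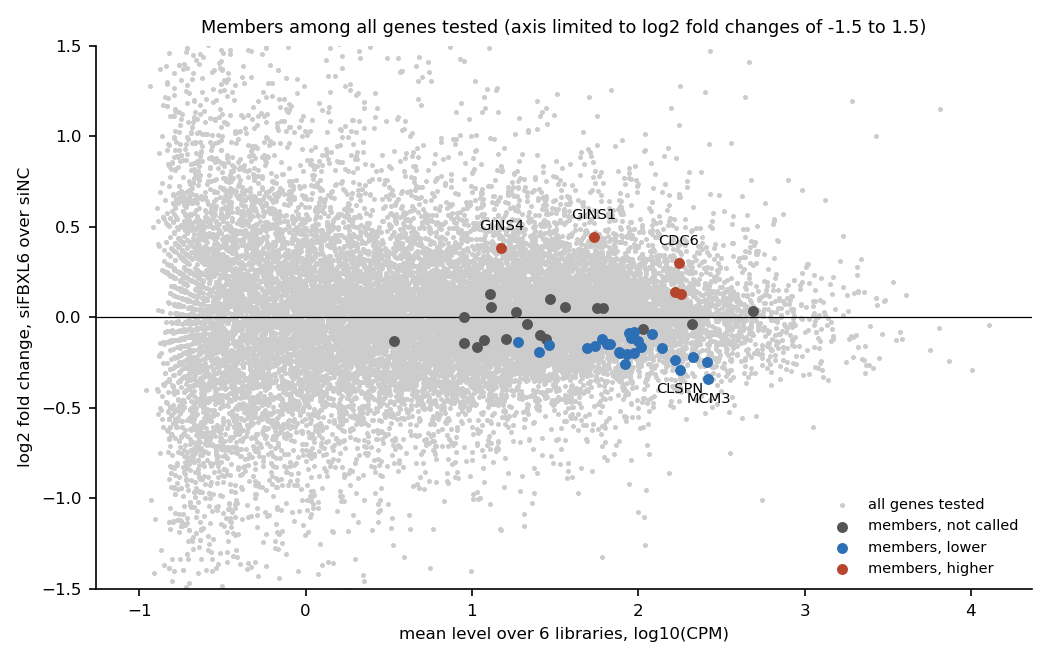
Log2 fold change of the libraries labelled siFBXL6 over siNC (vertical axis) against the mean level over the 6 libraries as log10(CPM) (horizontal axis); pale points are the genes tested, of which 207 fall outside the axis range of -1.5 to 1.5, and blue, red and dark grey points are members that fell, rose or were not called. The members lie within the spread of the other genes, from -0.34 to 0.44.

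Across members, levels were compared per length, as CPM per kilobase of merged exons (RPKM), in siNC. RRM1 was highest at 116 RPKM, followed by MCM3 at 81.0 RPKM, PCNA at 70.5 RPKM and CHAF1A at 65.4 RPKM. E2F2 was lowest at 0.651 RPKM, below GINS4 at 2.38 RPKM. The ring subunits were unequal, from 81.0 RPKM for MCM3 through 48.98 for MCM7, 33.7 for MCM4, 30.1 for MCM2 and 22.4 for MCM6 to 7.07 for MCM5. In the GINS tetramer, GINS1 stood at 11.3 RPKM and GINS2, GINS3 and GINS4 at 3.46, 2.42 and 2.38 RPKM. In the libraries labelled siFBXL6, GINS1 was at 15.3 RPKM and GINS4 at 3.11 RPKM, so GINS4 stood above GINS3 at 2.22 RPKM and level with GINS2 at 3.09 RPKM. The members had a median exon GC content of 48.2% against 48.4% for genes tested and a median exon length of 4309 against 3656 bases. Pseudogenes named after a member held at most 0.0663% of that member's count.

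Replication genes outside the module leaned the same way. Of 33 such genes 17 fell, 6 rose and 10 were not called, where 19.8% of all genes tested fell and 20.5% rose, and their median log2 fold change was -0.10. TIMELESS, a fork protection partner of CLSPN, was at 187, 177 and 175 CPM in siNC and at 138, 136 and 139.9 CPM in the libraries labelled siFBXL6. Its groups did not overlap (log2 fold change -0.38, edgeR adjusted p = 6.14e-12). SSRP1, a histone chaperone of the FACT complex, fell (log2 fold change -0.27, edgeR adjusted p = 7.34e-09), and DSCC1, a subunit of the alternative clamp loader, rose (log2 fold change 0.33, edgeR adjusted p = 1.2e-07). GMNN, which keeps CDT1 from loading origins again, was not called (log2 fold change -0.09, edgeR adjusted p = 0.0565), except without siNC 2 (edgeR adjusted p = 0.0174) and under 4 other settings, in a range of 0.0143 to 0.266. Of 13 further nucleotide genes 7 fell and 1 rose, against 19.8% lower and 20.5% higher among all genes tested, with a median of -0.14. The 1 that rose was GART (log2 fold change 0.14, edgeR adjusted p = 0.000209, named after its value was seen). The 7 that fell included DUT, which removes dUTP (log2 fold change -0.22, edgeR adjusted p = 1.8e-05), SAMHD1, which degrades deoxynucleotides (log2 fold change -0.18, edgeR adjusted p = 3.67e-05), and RRM2B, the p53-inducible small subunit of ribonucleotide reductase (log2 fold change -0.32, edgeR adjusted p = 4.51e-05).

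Upstream regulators of G1/S were called in both directions. Of 29 genes 7 fell, 8 rose and 14 were not called, near the shares among genes averaging 10 CPM or more (28.8% lower and 30.8% higher) and a little above those of all genes tested (19.8% and 20.5%), with a median log2 fold change of 0.00. CDK6, a D-cyclin kinase that inactivates the retinoblastoma protein, was at 63.5, 61.4 and 61.2 CPM in siNC and at 106, 99.6 and 105 CPM in the libraries labelled siFBXL6. This rise was larger than that of any member (log2 fold change 0.74, edgeR adjusted p = 5.43e-19). CCND1, cyclin D1, was at 195, 215 and 215 CPM against 260.2, 252 and 252 CPM. It also rose without overlap (log2 fold change 0.29, edgeR adjusted p = 1.15e-08). RB1, which encodes the retinoblastoma protein and is named after its value was seen, was low in both groups. It was at 3.47, 3.72 and 3.00 CPM in siNC and at 2.46, 2.95 and 2.42 CPM in the libraries labelled siFBXL6. That was a fall without overlap (log2 fold change -0.38, edgeR adjusted p = 0.0155). Whether the rises of CDK6 and CCND1 acted through that protein was not tested. E2F7, the partner of E2F8 in repression, rose (log2 fold change 0.37, edgeR adjusted p = 1.83e-10), while MYBL2, an activator of late cell cycle genes, fell (log2 fold change -0.26, edgeR adjusted p = 3.18e-09). CDK2 rose (log2 fold change 0.17, edgeR adjusted p = 0.00106) and CCNA2, cyclin A2, was not called (log2 fold change -0.04, edgeR adjusted p = 0.431). CDKN1A, the inhibitor p21, was called by a small margin (log2 fold change 0.09, edgeR adjusted p = 0.0496). That call was lost without siNC 1 (edgeR adjusted p = 0.201), siNC 2 (edgeR adjusted p = 0.113) or siFBXL6 1, 2 or 3 (edgeR adjusted p = 0.0778, 0.144 and 0.111) and under 6 other settings, DESeq2 among them (range over the alternatives 0.0139 to 0.201).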

How the data were processed

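The authors deposited 1 table of whole-number counts per gene for the 6 libraries, with no normalization. The paper's methods name Trimmomatic, HISAT2 and featureCounts from Subread on GRCh38, whereas the submitters' processing notes name fastp 0.23.0, STAR and featureCounts from Subread 1.5.1 on GRCh38, and it is not known which made the table. The annotation release, the strand setting and the treatment of multi-mapping reads are not given in the sources used here. All labels carry 1 batch, and which siRNA against FBXL6 was used is not given in them.

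Counts were filtered with filterByExpr (21298 of 56303 genes kept), scaled by TMM and fitted with edgeR 4.0.16 (quasi-likelihood, condition as the only term, Benjamini-Hochberg over all genes tested, R 4.3.3), and a gene was called at an adjusted p under 0.05. Intervals are 95% intervals. The common biological coefficient of variation was 3.57%. CPM use TMM-scaled library sizes, and RPKM divide them by the length of merged annotated exons. The steps were tested on simulated data. Counts of libraries of a group differed (chi-square per degree of freedom of 2.76 to 5.80), so none is an exact copy of another. Whether each count is an independent read was not tested, so these values are not compared with sampling noise.

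The members and lists were chosen with earlier results of these data known. Every sample's value is given, in each role group, for the 3 members with the smallest adjusted p and for E2F1, CCNE1, CCNE2, PCNA and MCM2. Other members are named with their log2 fold change. Of each other list up to 3 genes with the smallest adjusted p are named, with MKI67, CDKN1A, CCND1, CDK2, CCNA2, CHEK1 and GMNN, besides FBXL6, ACTB and the cell type markers. Alternatives were DESeq2 1.42.0, limma-voom (limma 3.58.1), other scalings and filters, blocking by replicate number, leaving out single libraries, and other thresholds. GC content and exon length corrections, and the background of genes at 10 CPM or more, were added after seeing the data. Chosen outside these rules, after values were seen, were the genes overlapping a member, the pairs for ratios, and the genes named as such.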

Additional observations from a re-analysis of the deposited data

How the results depend on the processing

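Of the 30 called members, 24 were called under each of the 16 other fits, and no called member changed sign under any of them. The other 6 (CDC45, MCM10, POLA1, PRIM1, POLE and TYMS) lost the call under at least 1. Of the 19 members not called, 11 were called under no other fit. The count of members called ran from 26 to 35, with 5 or 6 higher, and from 26 to 31 (21 to 25 lower) when 1 library was left out. Of the 784 values of members under these fits, 738 stayed on their side of the threshold, 26 lost a call and 20 gained one. ORC1 and E2F8, both not called, changed sign under some. FBXL6 was called under none. Asking for a change of at least 1.2-fold left 4661 of 8569 genes. It left 5 of 30 members (2 lower in place of 25 and 3 higher in place of 5), since most called members changed less than that. By that rule 6 other replication genes were called in place of 23, 1 other nucleotide gene in place of 8, 6 G1/S regulators in place of 15, 5 checkpoint genes in place of 8, 5 mitosis genes in place of 24 and 13 p53 targets in place of 19. With library size alone the members' median log2 fold change was -0.14 in place of -0.12, where the median of all genes moved from -0.01 to -0.03. Leaving out libraries gave medians from -0.13 to -0.10, the latter without siNC 1 and without siFBXL6 3. The cause was not tested. GC content and exon length corrections, added after seeing the data, gave 33 and 30 members called.

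No pairing by replicate number was seen in the counts, where deviations of same-numbered libraries correlated at -0.01, 0.00 and 0.01. Whether same-numbered samples were made together is not known. With the replicate number as a blocking term, all genes called came to 8408 and members called to 31, and RPA2 was the 1 member whose call changed. Depth limits E2F2 most, at 3.40 CPM. Some members overlap genes on the opposite strand, among them CCNE2, TYMS, GINS4, GINS3, MCM7, FEN1 and RFC5. With the strand setting unknown, their counts may include reads of those genes or may lack reads in the shared bases.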

Other observations

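Mitosis genes, whose products act after replication, leaned downward as the replication genes did. Of 30 genes 20 fell, 4 rose and 6 were not called, against 19.8% lower and 20.5% higher among all genes tested. All 30 averaged more than 10 CPM, and among genes at that level 28.8% were lower and 30.8% higher. Their median log2 fold change was -0.13. KIF20A, a kinesin of cytokinesis, was at 55.5, 54.8 and 59.7 CPM in siNC and at 37.2, 39.0 and 40.4 CPM in the libraries labelled siFBXL6. Its groups did not overlap (log2 fold change -0.54, edgeR adjusted p = 3.59e-13). BIRC5, a subunit of the chromosomal passenger complex, fell (log2 fold change -0.39, edgeR adjusted p = 5.49e-12), and so did TOP2A, which untangles sister chromatids (log2 fold change -0.31, edgeR adjusted p = 2.11e-10). The 4 that rose, named after their values were seen, were UBE2C, PTTG1, CDK1 and CENPF, with log2 fold changes from 0.08 to 0.19. MKI67, the gene of the Ki-67 antigen, was at 1065, 1003 and 935 CPM against 1032, 1032 and 1061 CPM. Its groups overlapped and it was not called (log2 fold change 0.06, edgeR adjusted p = 0.172). Without siNC 1 it was called higher (log2 fold change 0.10, edgeR adjusted p = 0.000238, range over the alternatives 0.000238 to 0.827).

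Of 18 checkpoint and repair genes of S phase 3 fell and 5 rose, near the shares of all genes tested (19.8% and 20.5%), with a median of 0.00. BRCA2, a mediator of homologous recombination, was at 19.8, 19.1 and 20.5 CPM against 26.0, 27.4 and 26.0 CPM. It rose without overlap (log2 fold change 0.42, edgeR adjusted p = 1.53e-08). BRCA1, USP1 and HUS1 rose too, and BLM and ATRIP fell, all named after their values were seen. WEE1, the kinase that restrains CDK1, fell (log2 fold change -0.28, edgeR adjusted p = 1.92e-07), and CHEK1 was not called (log2 fold change -0.03, edgeR adjusted p = 0.578). Of 26 p53 target genes 12 rose and 7 fell, where 20.5% of all genes tested rose and 19.8% fell, with a median of 0.10. The 7 that fell had log2 fold changes down to -0.60, while the 3 with the smallest adjusted p in edgeR, which the naming rule picks, rose. TNFRSF10B, a death receptor, was at 36.8, 35.3 and 36.0 CPM against 57.4, 56.5 and 53.8 CPM. It rose more than any member of the replication module (log2 fold change 0.63, edgeR adjusted p = 2.11e-15). GADD45A (log2 fold change 0.34, edgeR adjusted p = 1.28e-10) and GDF15 (log2 fold change 0.74, edgeR adjusted p = 6.48e-09) rose as well.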
